A study of Mus musculus with 6 samples.

Results

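Several miRNAs that act on lipid and energy metabolism are encoded inside introns of genes with metabolic roles of their own, and 4 of them were followed here in white adipose tissue (WAT) from the epididymal depot of mice. They were miR-378a, in Ppargc1b, miR-33a, in Srebf2, and miR-103a and miR-107, in genes of the pantothenate kinase (Pank) family. The members were picked by name, with every arm listed, which gave 7 of the 1983 rows of the deposited table. Of these, 5 were above the floor of the table in at least 3 of the 6 libraries, and 2, miR-33a-3p and miR-103a-2-5p, were listed at the floor in all 6. Small RNA had been sequenced from 3 wild type (Wt) C57BL6/J male mice and from 3 angiotensinogen transgenic (Agt Tg) male mice of the same labelled strain, with 1 library per mouse. In Agt Tg mice the aP2 promoter drives extra angiotensinogen, the precursor of the hormone angiotensin II, in adipose tissue. That promoter is active in adipocytes and, by the paper's account, in macrophages too. The labels give a chow diet for both groups and the methods a low fat diet, and no age is given. The angiotensinogen mRNA is not measured by such libraries, so the genotype could not be checked in these data.

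An intronic miRNA is cut from the same primary transcript as its host mRNA, or from a transcript of its own, as a hairpin with a 5p and a 3p arm. One arm is usually kept as the guide, whose seed (bases 2 to 8) pairs with target mRNAs, and the other is mostly degraded. Ppargc1b encodes PGC-1β, a coactivator of mitochondrial and fatty acid oxidation genes. Srebf2 encodes SREBP-2, the transcription factor that switches on cholesterol synthesis, and miR-33 is known for repressing the cholesterol exporter Abca1. Pank enzymes start coenzyme A synthesis, and miR-103 and miR-107 are known as regulators of insulin sensitivity in liver and fat.

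In the mouse genome (GRCm38, GENCODE M21), Mir33 lies on chromosome 15 from 82198122 to 82198190, in intron 16 of 18 of Srebf2-201. Mir103-1 lies on chromosome 11 from 35782396 to 35782481, in intron 5 of 6 of Pank3-201. Mir103-2 lies on chromosome 2 from 131288052 to 131288137, in intron 7 of 8 of Pank2-202. Mir107 lies on chromosome 19 from 34820687 to 34820773, on the minus strand, in intron 5 of 6 of Pank1-201. Each was on the strand of its host, and 0 annotated transcripts of the host had an exon over it. The same held for Mir378a in Ppargc1b. Because Mir103-1 and Mir103-2 give the same mature 3p sequence, the row of miR-103a-3p adds up products of Pank3 and Pank2, and their parts cannot be told apart.

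The mature mouse sequences show which rows can act on the same targets and which differ by so little that their reads are hard to part. They were taken from RefSeq (GRCm38.p6), which matched 5 of the 7 member rows, and are written 5′ to 3′ with the seed in capitals.
mmu-miR-103-3p: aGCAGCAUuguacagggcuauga
mmu-miR-107-3p: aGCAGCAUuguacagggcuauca
mmu-miR-33-5p: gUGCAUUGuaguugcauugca
mmu-miR-33-3p: cAAUGUUUccacagugcaucac
mmu-miR-103-2-5p: aGCUUCUUuacagugcugccuug
mmu-miR-378c: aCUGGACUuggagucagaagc
mmu-miR-378d: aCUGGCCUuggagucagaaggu

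The mature forms of miR-103 and miR-107 are identical at 22 of 23 bases. Counted from 1 at the 5′ end, with the base of miR-103 first, they differ by G22C, near the 3′ end and outside the seed. Among 1679 mature mouse miRNA names searched, the seed GCAGCAU occurred in these 2 alone, and the seed of miR-33-5p in 1. The seed AGCAGCA of mmu-miR-16-5p and its relatives holds 6 of the same letters, 1 base further along. Rows miR-378c and miR-378d are no members but close relatives of miR-378a. The mouse forms of that name are identical at 19 of their first 21 bases and differ by A6C, inside the seed, and by C21G. All rows of the table carry human names, so a mouse form of the same name need not be the sequence that the row counted.

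Each value is a log2 read count scaled to a library total of 10000000, with anything under 10 raised to 10, and this lowest value, 3.32 on the log2 scale, is called the floor. The library totals, worked out from the values, lay between 6387766 and 10562634 reads. Wt replicate 2 stood apart from the other libraries: the summed level of 13 miRNAs that mark epididymis, testis and epithelium was 138567 reads per 10000000 there and 1036 to 1726 in the other 5. Of the 13, 7 were tested and 4 were listed at the floor in all libraries. The genotype fold changes, ratios, shares and counts of the members are therefore also given without this library. Of 6 miRNAs chosen as adipose markers, 4 were tested. Their summed level was 440581 to 508368 in Wt and 491043 to 670440 in Agt Tg mice, whereas miR-193b-3p and miR-455-3p were listed at the floor in every library. In whole tissue, fewer cells of a type and less of a miRNA per cell cannot be told apart.

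miR-378a-3p was the most abundant member, and its level did not separate the genotypes. Its log2 values were 15.93, 15.24 and 16.00 in Wt replicates 1, 2 and 3, from 46751, 30304 and 64384 reads. In Agt Tg replicates 1, 2 and 3 they were 15.42, 15.95 and 15.93, from 45565, 40337 and 65884 reads. Within each genotype 1 library was low, Wt replicate 2 and Agt Tg replicate 1, and the other 4 lay close together, so that the groups overlapped. This arm ranked between place 17 and place 28 of all rows in the 6 libraries. It took 1.00% ± 0.259 (SD, n = 3) of the reads on listed miRNAs in Wt mice. In Agt Tg mice its share was 1.06% ± 0.209 (SD, n = 3). Without Wt replicate 2 the Wt mean was 1.15%, above that of Agt Tg mice.

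The other arm, miR-378a-5p, had log2 values of 9.06, 8.22 and 9.31 in the Wt libraries in the same order. In the Agt Tg libraries they were 8.63, 9.47 and 8.91. Again Wt replicate 2 was the lowest of Wt and Agt Tg replicate 1 the lowest of Agt Tg, and the groups overlapped. The 3p arm exceeded the 5p arm in each of the 6 libraries, by a factor between 89.0 and 130.1.

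**Figure D1:**
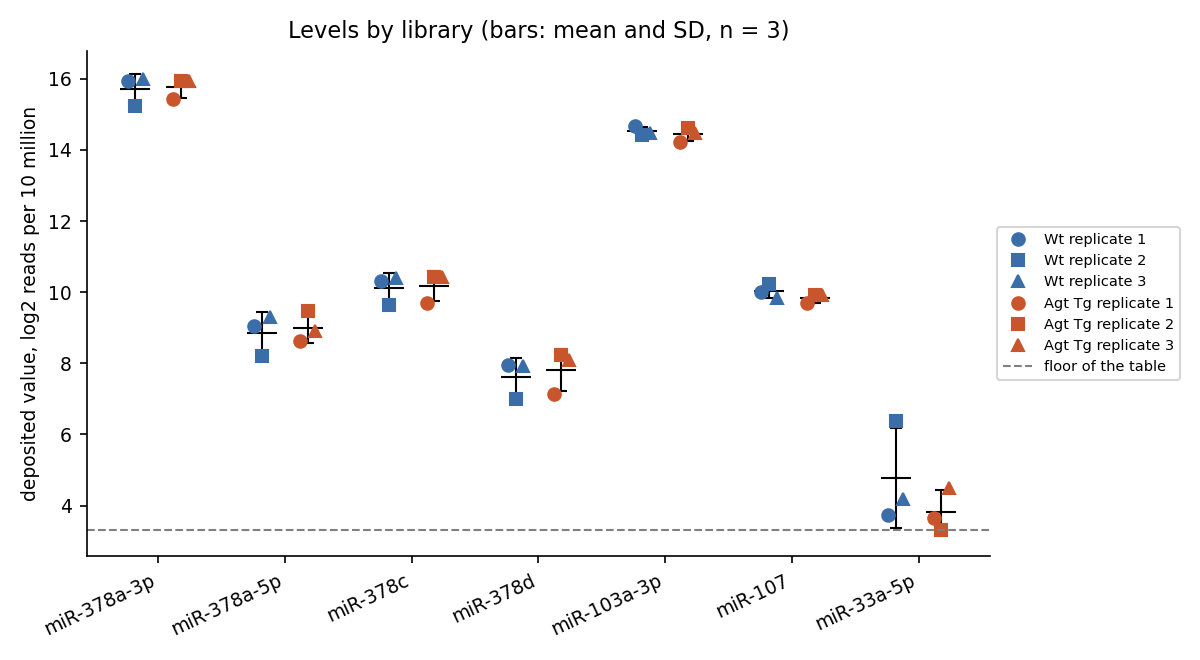
Deposited values (log2 reads per 10000000, vertical axis) of the 5 members above the floor and of the relatives miR-378c and miR-378d, 1 point per library, with the mean and SD of 3 libraries as bars and the floor as a dashed line. The genotypes overlap in every column, and Wt replicate 2 lies at 6.37 for miR-33a-5p, above the other 5 libraries.

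The relatives moved with miR-378a from library to library. miR-378c lay between 9.64 and 10.42 and miR-378d between 6.995 and 8.23, and in both the 2 lowest libraries were Wt replicate 2 and Agt Tg replicate 1. Relative to its own mean over the 6 libraries, Wt replicate 2 was at −0.51 for miR-378a-3p, −0.72 for miR-378a-5p, −0.51 for miR-378c and −0.73 for miR-378d. Agt Tg replicate 1 was at −0.32, −0.30, −0.47 and −0.57 for the same rows. Within a library, miR-378a-3p exceeded miR-378c by 5.51 to 5.74 on the log2 scale. The SD of that difference over 6 libraries was 0.08, compared with 0.33 for the level of miR-378a-3p alone. It exceeded miR-378d by 7.71 to 8.28. How the pipeline assigned reads among these close relatives is not given in the sources used here. Its part in the shared pattern was not tested. The row of miR-378e passed the floor in 2 libraries, Agt Tg replicates 2 and 3, with 7 and 14 reads, and 9 other relatives, among them both arms of miR-33b, were at the floor throughout. Among the mouse names used here, none matched miR-33b, miR-422a or miR-378e to miR-378j. A floor value in these rows therefore need not be an absence in mouse fat. The search was incomplete, as miR-378a had no match there either.

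**Figure D2:**
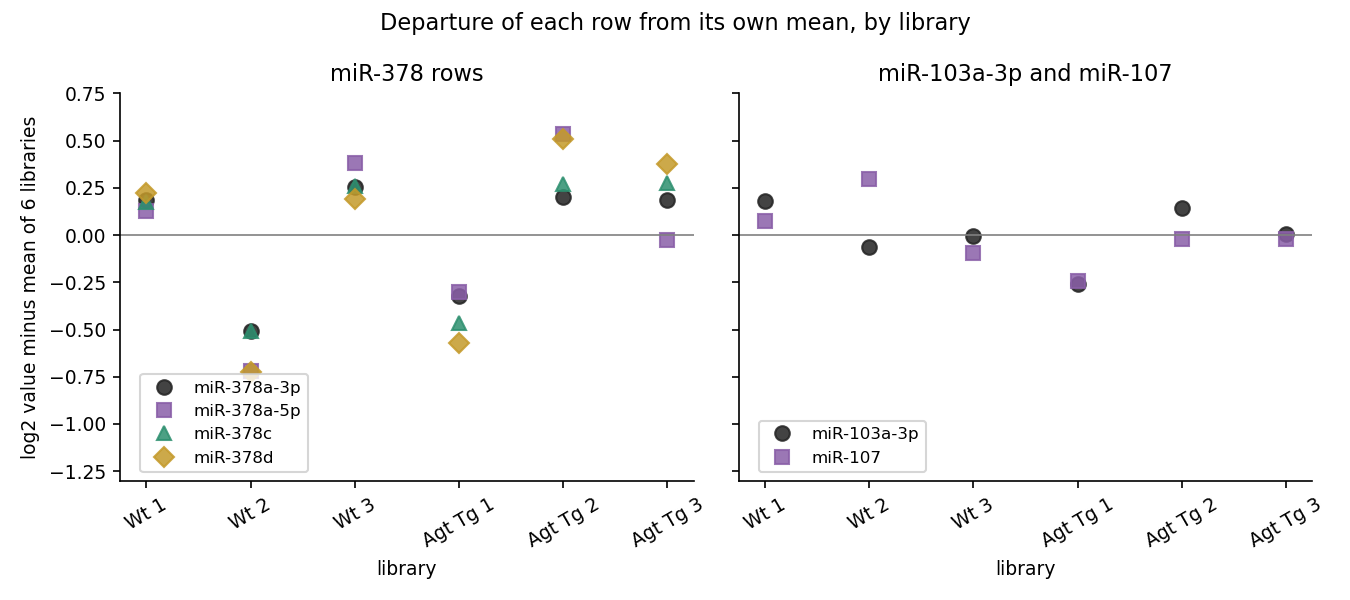
Departure of each row from its own mean over 6 libraries (log2, vertical axis), by library, for the miR-378 rows on the left and for miR-103a-3p and miR-107 on the right. All 4 miR-378 rows are lowest in Wt replicate 2 (−0.73 to −0.51), where miR-107 is at its highest (0.30).

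The libraries with low miR-378 rows differed from each other in markers and in depth. The summed adipose list was 508368 in Wt replicate 2 and 491043 in Agt Tg replicate 1, both inside the range of the other libraries. The epithelial list, 138567 in the first, was 1662 in the second. In the muscle list, which matters here because miR-378a is also known from muscle, Wt replicate 2 stood at 1699 and the other 5 libraries at 496 to 651. That sum was nearly all miR-133a, with miR-133b, miR-206, miR-208a and miR-208b at the floor in all libraries and miR-1 above it only in Wt replicate 2. miR-499a-5p, also in the list, was at the floor in Wt replicate 2 and in Agt Tg replicates 1 and 3. It stood at 4.12 and 3.61 in Wt replicates 1 and 3 and at 3.45 in Agt Tg replicate 2. The library totals of Wt replicate 2 and Agt Tg replicate 1 were 7838874 and 10367417 reads. The part of these values in the level of miR-378a was not tested.

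miR-103a-3p, the joint product of the Pank2 and Pank3 introns, was the second most abundant member and varied little between mice. Its log2 values were 14.67, 14.42 and 14.48 in Wt replicates 1, 2 and 3 and 14.22, 14.63 and 14.49 in Agt Tg replicates 1, 2 and 3. The highest library was Wt replicate 1 and the lowest Agt Tg replicate 1, with the others of both groups between them. Its pooled SD within genotypes was 0.17, compared with a median of 0.28 over the 21 tested rows whose mean level lay within 1 log2 of it.

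miR-107, from the Pank1 intron, had log2 values of 10.004, 10.23 and 9.83 in Wt and of 9.69, 9.91 and 9.91 in Agt Tg replicates 1, 2 and 3. Wt replicate 2 was the highest library here, not the lowest as for miR-378a, and the groups overlapped. The pooled SD was 0.17, and 39 of the 40 rows within 1 log2 of its level had a larger one. miR-107 made up 4.28% ± 0.784 (SD, n = 3) of the summed reads of miR-103a-3p and miR-107 in Wt mice. The Agt Tg share was 3.94% ± 0.249 (SD, n = 3). The share was 3.801%, 5.18% and 3.85% in Wt replicates 1, 2 and 3, so the higher Wt mean rested on Wt replicate 2, without which it was 3.83%, below that of Agt Tg mice. Reads with an error at base 22 could move from the larger row to the smaller one, and how the pipeline assigned them is not given in the sources used here.

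miR-33a-5p, the cholesterol-linked member, was close to the limit of the table. It had 10, 65 and 18 reads in Wt replicates 1, 2 and 3, which are log2 values of 3.74, 6.37 and 4.20. In Agt Tg replicates 1 and 3 it had 13 and 24 reads (3.65 and 4.51), and in Agt Tg replicate 2 it was listed at the floor, worth 6.39 reads in that library. Wt replicate 2 was the exception, and the other Wt libraries lay within the range of the Agt Tg libraries. Per 10000000 reads, Wt replicate 2 had 82.9 with an exact 95% Poisson interval of 64.0 to 105.7. The highest upper bound among the other libraries above the floor was 33.8, in Agt Tg replicate 3. These intervals cover counting error only.

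The excess of miR-33a-5p was thus in the library with the high epithelial markers. miR-375 stood at 15.10 there, against 5.34 to 6.23 elsewhere, and miR-34c-5p at 16.32 against 9.54 to 10.36. Their part in the miR-33a-5p value was not tested. The pooled SD of miR-33a-5p was 1.08, and 6 of the 83 rows within 1 log2 of its level had a larger one.

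**Figure D3:**
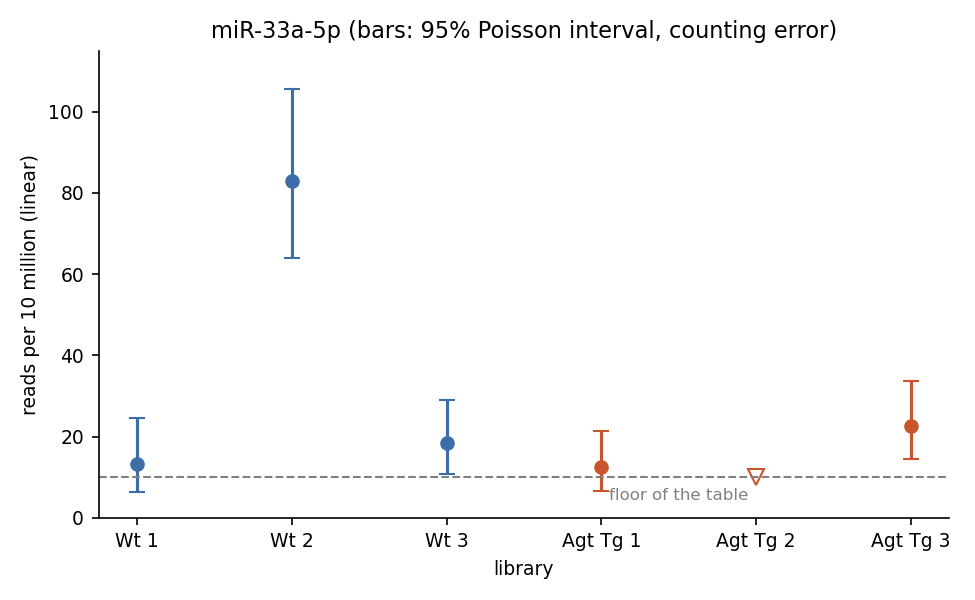
miR-33a-5p in reads per 10000000 (linear, vertical axis) by library, with exact 95% Poisson intervals for counting error; the open triangle is a library listed at the floor of 10 (dashed line). Wt replicate 2, at 82.9, is the only library whose interval lies above the other 4 intervals.

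The order of levels was miR-378a-3p, miR-103a-3p, miR-378c, miR-107, miR-378a-5p, miR-378d and miR-33a-5p. A difference in level between miRNAs also carries the bias of adapter ligation, although mature miRNAs have nearly the same length. miR-378a-3p exceeded miR-103a-3p by 1.26 ± 0.25 on the log2 scale (SD, n = 6) and miR-103a-3p exceeded miR-378c by 4.33 ± 0.28 (SD, n = 6), both in 6 of 6 libraries. miR-378c and miR-107 were neighbours that did not differ beyond their spread (0.22 ± 0.45, SD, n = 6). The first was higher in 4 of 6 libraries, with the order turned in Wt replicate 2 and Agt Tg replicate 1. The remaining neighbours kept their order in 6 of 6 libraries.

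The comparison of Agt Tg with Wt mice asked whether extra angiotensinogen in fat tissue was accompanied by other levels of these miRNAs. limma was fitted to the 329 rows above the floor in at least 3 libraries. Of the 5 members, 0 passed an unadjusted p of 0.05 with an absolute log2 fold change of 1, a threshold that 4.86% of all tested rows passed, 9 higher (2.74%) and 7 lower (2.13%). Under TMM scaling the split was 10 and 5. Without Wt replicate 2, 23 rows (6.99%) passed, 0 of them members. With Benjamini-Hochberg adjustment limma called 0.0% of all rows (smallest adjusted p = 0.382), and 30 rows (9.12%), 0 of them members, had an unadjusted p under 0.05. limma-voom also called 0, with 32 rows at an unadjusted p under 0.05. Groups overlapped in 5 of the 5 members. Of all tested rows, 17.6% had groups that did not overlap, a share too small for 5 rows to show a contrast. Without Wt replicate 2, with 2 libraries against 3, 39.5% of all rows did not overlap, and again 0 of the members.

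The log2 fold change (Agt Tg minus Wt) of miR-378a-3p was 0.04 (standard error 0.26, 95% interval −0.58 to 0.66, limma adjusted p = 0.927), between means of 15.72 ± 0.42 and 15.77 ± 0.30 (SD, n = 3). For miR-378a-5p it was 0.14 (standard error 0.37, 95% interval −0.74 to 1.02, limma adjusted p = 0.863). Both values turned negative without Wt replicate 2, to −0.20 and −0.18. A change of either arm by a factor of 2 or more lay outside the interval only for the 3p arm. The relatives had log2 fold changes of 0.05 (miR-378c) and 0.21 (miR-378d), and of −0.19 and −0.10 without Wt replicate 2.

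miR-103a-3p had a log2 fold change of −0.07 (standard error 0.18, 95% interval −0.50 to 0.35, limma adjusted p = 0.848). Under TMM scaling its sign turned, to 0.053. miR-107 had a log2 fold change of −0.19 (standard error 0.22, 95% interval −0.70 to 0.33, limma adjusted p = 0.710), equal to the median of all tested rows, which was also −0.19 (−0.06 under TMM scaling). Without Wt replicate 2 the values were −0.12 and −0.08. For both, the interval over all 6 mice left out a 2-fold change in either direction.

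miR-33a-5p had a log2 fold change of −0.94 (standard error 0.71, 95% interval −2.62 to 0.73, limma adjusted p = 0.616), between means of 4.77 ± 1.41 and 3.83 ± 0.61 (SD, n = 3). Without Wt replicate 2 it was −0.14 (standard error 0.43), so this library carried most of the difference. The value was the farthest from 0 of the members with all libraries, but was closer to 0 than those of both miR-378a arms without that library. With 1 library at the floor the fitted value is no bound on the change. In exact two-sided permutation tests over mice, the p of the members ran from 0.3 to 0.9, and 3 against 3 cannot give a p under 0.1.

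**Figure D4:**
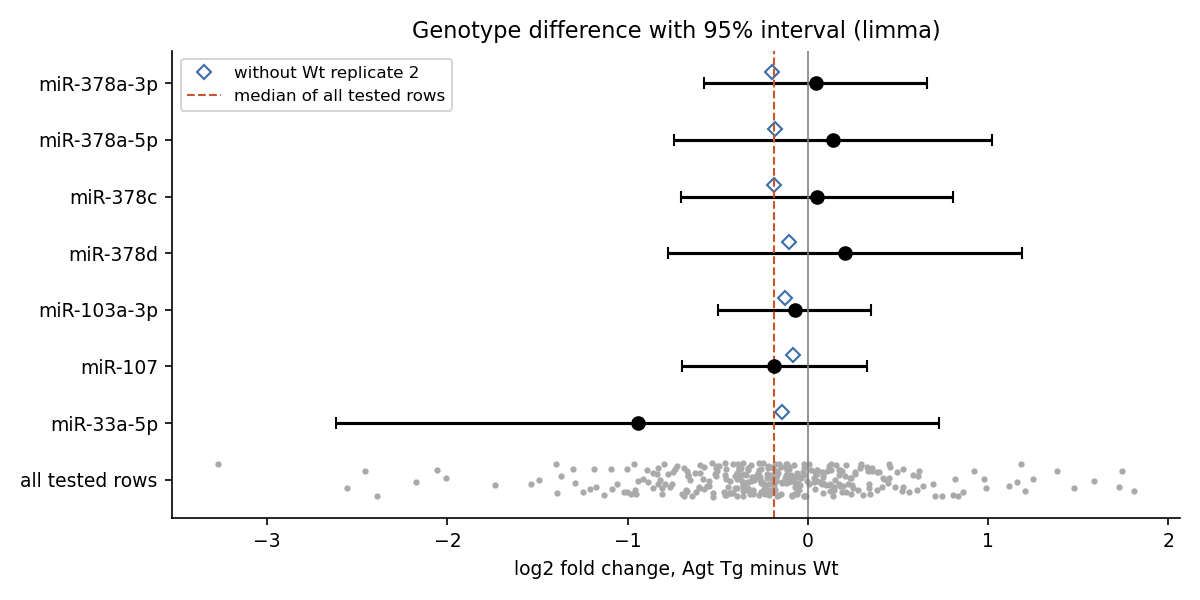
Log2 fold change (Agt Tg minus Wt, horizontal axis) with its 95% interval from limma for the members and 2 relatives, the value without Wt replicate 2 as open diamonds, and all 329 tested rows as grey points whose vertical scatter has no meaning. Every interval includes 0, and miR-33a-5p moves from −0.94 to −0.14 without that library.

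Ratios of 2 rows within a library do not depend on the scaling of libraries. The log2 ratio of miR-378a-3p to miR-378a-5p was 6.87, 7.02 and 6.69 in Wt replicates 1, 2 and 3 and 6.79, 6.48 and 7.02 in Agt Tg replicates 1, 2 and 3. The groups overlapped widely, with a difference of −0.10 (standard error 0.18, 95% interval −0.61 to 0.42, exact permutation test, two-sided p = 0.6). Wt replicate 2, low in both arms, had the highest of the 6 ratios, and without it the difference was −0.017.

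The log2 ratio of miR-103a-3p to miR-107 was 4.66, 4.19 and 4.64 in Wt and 4.54, 4.72 and 4.58 in Agt Tg replicates 1, 2 and 3. Wt replicate 2 was low and the other 5 lay within 4.54 to 4.72. The genotypes differed by 0.11 (standard error 0.16, 95% interval −0.34 to 0.56, exact permutation test, two-sided p = 0.8), and by −0.041 without Wt replicate 2.

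**Figure D5:**
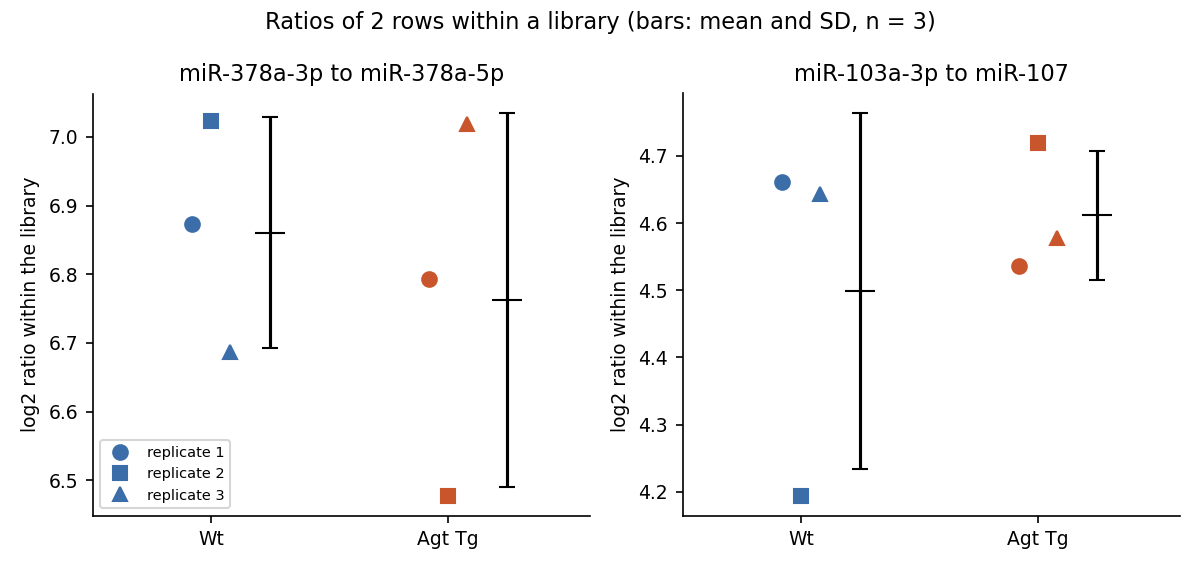
Log2 ratio of miR-378a-3p to miR-378a-5p (left) and of miR-103a-3p to miR-107 (right) within each library, by genotype, with mean and SD of 3 libraries as bars; the vertical axes do not start at 0. In the right panel Wt replicate 2 lies at 4.19 and the other 5 libraries at 4.54 to 4.72.

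With Wt replicate 2 included, the members did not follow each other as 1 group across libraries. Over the 6 libraries, which is few points, and on values that share the scaling to library totals, Pearson's r was 0.91 between the arms of miR-378a and 0.39 between miR-103a-3p and miR-107. It was 0.69 between miR-378a-3p and miR-103a-3p and −0.31 between miR-378a-3p and miR-107. In Wt replicate 2 these rows parted: miR-378a-3p was at −0.51 from its own mean, miR-103a-3p at −0.06 and miR-107 at 0.30. In Agt Tg replicate 1 they were low together, at −0.32, −0.26 and −0.24. Values of r without Wt replicate 2 were not computed, so how the members moved in the other libraries was not tested.

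Among the 269 other rows above the floor in all libraries, those most like miR-378a-3p by Pearson's r were miR-378c (r = 0.98) and miR-378d (r = 0.96). By the order of the libraries alone (Spearman's rho) both stood at 0.60, and miR-378a-5p at 0.94. The rows most like miR-378a-5p by Pearson's r were miR-365a-3p and miR-365b-3p (r = 0.98), a pair with the same values in every library. miR-708-5p and miR-22-5p were most like miR-103a-3p (r = 0.97 for both). miR-10a-3p (r = 0.93) and miR-5089-5p (r = 0.91) were most like miR-107. With so many rows and 6 libraries, high values are easily found: the tenth row in these orders still had r of 0.69 to 0.85.

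A pair of wider lists gives the setting. Of 43 rows of other miRNAs that lie in introns of protein-coding genes, 35 were tested, 9 with a log2 fold change above 0 and 26 below, and 0 passed the threshold. Of all 329 rows, 222 were below 0. Their median was −0.19, the same as over all 329 rows. The highest were miR-126-5p (0.33), of the endothelial gene Egfl7, and miR-152 (0.19), and the lowest miR-326 (−0.89) and miR-425-3p (−0.83). In 5 of the 35 (14.3%) the groups did not overlap, beside 17.6% of all rows, and the 5 were lower in Agt Tg mice, as were 35 of the 58 such rows in all. Of these 5, miR-128 (−0.61) and miR-106b-5p (−0.32) are in the next list too. Without Wt replicate 2, 8 were above 0 and 27 below, beside 216 of 329 rows below 0. Then 2 passed the threshold (5.71%), miR-326 and miR-425-3p, a share below the 6.99% of all rows. The groups then did not overlap in 18 of the 35 (51.4%), a share above the 39.5% of all rows.

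Of 31 rows of miRNAs known for cholesterol and fatty acid metabolism, 21 were tested, 7 above 0 and 14 below, with a median of −0.18 and 0 past the threshold. The highest were both arms of the erythroid miR-144 (0.53 and 0.40), and the lowest miR-130b-3p (−0.68) and miR-223-3p (−0.63), a miRNA of myeloid cells. The counts above and below 0 and past the threshold were again 7, 14 and 0 without Wt replicate 2. Beside the blood miRNAs, the summed blood list was 92358 in Wt replicate 2 and 120658 to 245995 in the other 5 libraries, and its part was not tested. Of the 16 names in the cholesterol and fatty acid list, miR-370, miR-758 and miR-301b were at the floor in all libraries.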

How the data were processed

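Small RNA libraries of epididymal WAT from 3 Wt and 3 Agt Tg male mice were used, grouped by the sample labels. The authors mapped reads to miRBase precursors, kept those on mature miRNAs and made the profiles by the Gunaratne Next Generation Pipeline. The labels name the build mm10. The miRBase release is not given in the sources used here, nor is the number of mismatches. The deposited unit is log2, of reads scaled to 10000000 and floored at 10. This was worked out from the values, of which 1924 of 1924 above the floor were whole reads within 0.02. The floor was worth 6.39 to 10.6 reads.

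limma 3.58.1 (R 4.3.3, variance trend, genotype only) was fitted to 329 rows and tested on simulated data. Adjustment was Benjamini-Hochberg over all rows. Intervals of ratios use the pooled variance of both groups. The members and lists were chosen with earlier results of these data known. The rule for naming took all member rows, relatives above the floor, the 2 rows most like each member, and the 2 highest and lowest of each list. Any other miRNA was named after its values were seen. Nothing states that replicate numbers pair mice, and same-numbered libraries deviated together with r of 0.22, −0.18 and −0.21. Alternatives were TMM or miR-191-5p scaling, log2(value + 1), limma-voom, other filters, no trend, a replicate block and leaving out each library. Figures used matplotlib 3.10.9.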

Additional observations from a re-analysis of the deposited data

How the results depend on the processing

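None of the 85 alternatives for members and ratios carried a result past the threshold, and 10 turned a sign. The 8 alternatives for each ratio could not pass it, as exact tests on 3 or fewer mice per group give no p under 0.1. With each library left out, log2 fold changes ran from −0.20 to 0.21 for miR-378a-3p, −0.18 to 0.37 for miR-378a-5p, −0.17 to 0.04 for miR-103a-3p, −0.28 to −0.08 for miR-107 and −1.46 to −0.14 for miR-33a-5p. The arm difference of miR-378a ran from −0.23 to 0.05 and that of miR-103a-3p to miR-107 from −0.04 to 0.19. The sign of miR-378a-3p turned in the absence of Wt replicate 2 (−0.20) and of Agt Tg replicates 2 (−0.05) and 3 (−0.04), that of miR-378a-5p without Wt replicate 2 (−0.18) or Agt Tg replicate 2 (−0.09), that of miR-103a-3p without Agt Tg replicate 1 (0.038), and that of the miR-378a arm difference without Agt Tg replicate 2 (0.045). The ratio of miR-103a-3p to miR-107 turned without Wt replicate 2 (−0.041). miR-103a-3p turned to 0.053 under TMM scaling and to 0.049 under limma-voom, which was also run with TMM scaling. TMM scaling alone moves the log2 fold change of every row by the same amount, here 0.13, and so the sign of a value this close to 0. What lies behind the difference in scaling between libraries was not tested. The adjusted p of the members stayed between 0.583 and 0.994.

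Over all rows, 16 passed the threshold, 12 to 35 with a library left out (35 without Agt Tg replicate 1) and 9 among the 270 rows above the floor in all 6, fewer rows tested. The replicate block gave 17 and changed no call of a member, but nothing states that the replicate numbers pair the mice. miR-33a-5p has no value under the filter at all 6 libraries. Its reads, at most 65 and listed at the floor in 1 library, limit what could be detected.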
